A study of Mus musculus with 6 samples.

Results

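The Iroquois genes Irx1 to Irx6 were examined in RNA of the mouse soft palate at embryonic stage E14.5. There were 3 control libraries (genotype wild type) and 3 Dlx5-/- libraries. The members were all rows of the deposited gene table with these symbols, 6 of 49492 rows. The family was proposed because its estimates were higher in the knockout, so every knockout and control value of a member below is a description. Calls of members by a method are listed only to show how methods differ, and nothing is read from them. Dlx5 encodes a Distal-less homeodomain protein that patterns the jaws and palate, and the Dlx5-/- label names a loss of both copies. The tissue was the posterior part of the palate. Strain, sex, pooling and the number of embryos behind a library are not stated in the labels, so the spread between libraries may in part be technical.

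Iroquois proteins are transcription factors of the TALE class, whose homeodomain carries an extra loop of amino acids. They pattern the neural tube, heart, limb and skull, and in mammals their genes lie in a pair of clusters that arose by duplication, with a gene in one cluster matched by a gene at the same place in the other. Loss of human IRX5 causes Hamamy syndrome, which affects the face, heart, blood and bone.

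Irx1, Irx2 and Irx4 form the cluster on mouse chromosome 13, and Irx3, Irx5 and Irx6 the cluster on chromosome 8. In GENCODE M21 on GRCm38, Irx1 lies at chr13:71957921-71963723 (minus strand), Irx2 at chr13:72628820-72634198 (plus strand) and Irx4 at chr13:73260479-73269608 (plus strand). Irx3 lies at chr8:91798525-91802067 (minus strand), Irx5 at chr8:92357625-92376286 (plus strand) and Irx6 at chr8:92674288-92680956 (plus strand). The gaps are long: 665 kb from Irx1 to Irx2, 626 kb from Irx2 to Irx4, 556 kb from Irx3 to Irx5 and 298 kb from Irx5 to Irx6. Irx3 overlaps the antisense RNA Irx3os, and Irx6 overlaps Gm45505, also annotated as antisense.

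The 6 coding sequences are most alike inside the homeobox, the part that encodes the DNA-binding homeodomain. The best shared stretch of 60 bases is shown because it bears on how well reads of the members can be told apart. Capitals mark the 55 positions at which all 6 genes carry the same base, and lower case the others. The sequences come from GENCODE M21 transcripts, on the coding strand, 5′ to 3′.
Irx1: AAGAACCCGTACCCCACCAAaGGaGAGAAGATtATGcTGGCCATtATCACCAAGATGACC
Irx2: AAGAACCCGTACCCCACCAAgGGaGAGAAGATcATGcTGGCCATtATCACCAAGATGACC
Irx3: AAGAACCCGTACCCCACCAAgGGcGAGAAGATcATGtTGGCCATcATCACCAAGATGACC
Irx4: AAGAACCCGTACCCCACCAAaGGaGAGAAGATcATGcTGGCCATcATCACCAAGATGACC
Irx5: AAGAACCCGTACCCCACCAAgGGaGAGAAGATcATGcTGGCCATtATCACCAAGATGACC
Irx6: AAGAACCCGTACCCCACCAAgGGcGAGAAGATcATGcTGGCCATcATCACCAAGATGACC
The stretch lies in Irx1 at chr13:71960052-71960111 (minus strand, exon 2), Irx2 at chr13:72630733-72630792 (plus strand, exon 2), Irx3 at chr8:91800556-91800615 (minus strand, exon 2), Irx4 at chr13:73267592-73267651 (plus strand, exon 5), Irx5 at chr8:92359696-92359755 (plus strand, exon 2) and Irx6 at chr8:92677305-92677364 (plus strand, exon 4), all on GRCm38. Irx2 and Irx5, from different clusters, are identical over all 60 bases, and over the 15 pairs of members the identity ran from 91.7% to 100%.

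The longest run shared by any pair of members was 88 bases, between Irx3 and Irx6. It is shown in capitals with 10 flanking bases on each side, because these were the members whose counts were not whole numbers.
Irx3: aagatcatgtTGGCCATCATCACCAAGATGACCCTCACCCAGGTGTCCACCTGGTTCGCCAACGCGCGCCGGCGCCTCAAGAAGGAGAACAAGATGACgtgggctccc
Irx6: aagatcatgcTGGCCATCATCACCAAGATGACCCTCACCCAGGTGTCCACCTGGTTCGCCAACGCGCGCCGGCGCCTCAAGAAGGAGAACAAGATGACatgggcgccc
This run overlaps the homeobox and lies in exon 2 of Irx3 at chr8:91800491-91800578 (minus strand) and in exon 4 of Irx6 at chr8:92677342-92677429 (plus strand). For the other pairs the longest shared run was 23 to 65 bases.

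The table gives estimated counts, in which reads that match several genes are divided among them. Irx1, Irx2, Irx4 and Irx5 held whole counts in all 6 libraries (within 0.001), whereas Irx3 and Irx6 did not. In each of the 6 libraries the values of Irx3, Irx6 and Irx3os added up to a whole number within 0.01. In control replicate 1, for example, 249 counts of Irx3, 6.11 of Irx6 and 2.03 of Irx3os made 257. In knockout replicate 3, 586 counts of Irx3, 36.7 of Irx6 and 12.1 of Irx3os made 635. The sum of Irx3 and Irx6 alone was whole in 2 of the 6 libraries. The level of Irx6 is therefore partly an estimate of how to divide reads with Irx3, a gene with many times its counts, and how many reads were divided is not known. Whether the counting used strand is not given in the sources used here, so reads of Irx3 and Irx3os on opposite strands may also not be told apart.

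Library totals ran from 6891798 to 11922442 estimated counts. Rows that collect ribosomal RNA reads held 20.6%, 17.5% and 19.2% of the totals in control replicates 1, 2 and 3. In knockout replicates 1, 2 and 3 they held 22.7%, 27.2% and 11.7%. The part of this difference in the results with library totals was not tested. Dlx5 itself measured 15.7 to 26.1 CPM (counts scaled to a common library total) in controls and 0.829 to 1.63 CPM in knockouts, so all 6 libraries matched their labels. Knockout replicate 3 stood apart, with a mean correlation to the other libraries of 0.959 against 0.970 to 0.976 for the rest. Its markers of other cell types are given beside the results they move with. CPM values are scaled with TMM, edgeR's correction of library totals. Means are given with their SD over 3 libraries.

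Irx1, which acts in limb, lung and tooth development among other sites, measured 8.64, 5.20 and 7.04 CPM in control replicates 1, 2 and 3 and 22.3, 16.3 and 35.8 CPM in knockout replicates 1, 2 and 3. The lowest knockout library lay 1.89-fold above the highest control library, and knockout replicate 3 was the highest of all. The means were 6.96 ± 1.72 and 24.8 ± 10.01 CPM. The fitted log2 fold change was 1.85 (SE 0.31), and 0.604% of the 16218 genes fitted had a larger one.

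Irx2, the neighbour of Irx1 in the cluster, measured 3.99, 2.44 and 4.60 CPM in controls and 13.1, 6.96 and 22.0 CPM in knockouts. The groups did not overlap, and the order of the knockout libraries was that of Irx1. The means were 3.68 ± 1.12 and 14.04 ± 7.58 CPM, with a log2 fold change of 1.97 (SE 0.43).

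Irx4, known as a marker of the heart ventricle, had 0 counts in every control library. Knockout replicates 1, 2 and 3 held 3, 1 and 39 counts. Knockout replicate 3 held 90.7% of its 43 counts. Against the limit that a count of 0 allows (3 counts over the control group, for counting error only), the knockout group was at least 13.2-fold higher. Without knockout replicate 3 there were 4 counts, too few for a fold. Irx4 missed the filter of a mean of at least 1 CPM and was not fitted. Among 6 heart muscle markers, Nkx2-5 and Nppa were, like Irx4, at 0 in all controls. The summed level of the list was 1.29 to 2.81 CPM in controls and 0.829, 11.1 and 5.88 CPM in knockout replicates 1, 2 and 3. With the filter left off, edgeR called 1 of these markers, Nkx2-5, higher in the knockout (0.817% of all genes). The part of heart muscle in the Irx4 counts was not tested.

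**Figure D1:**
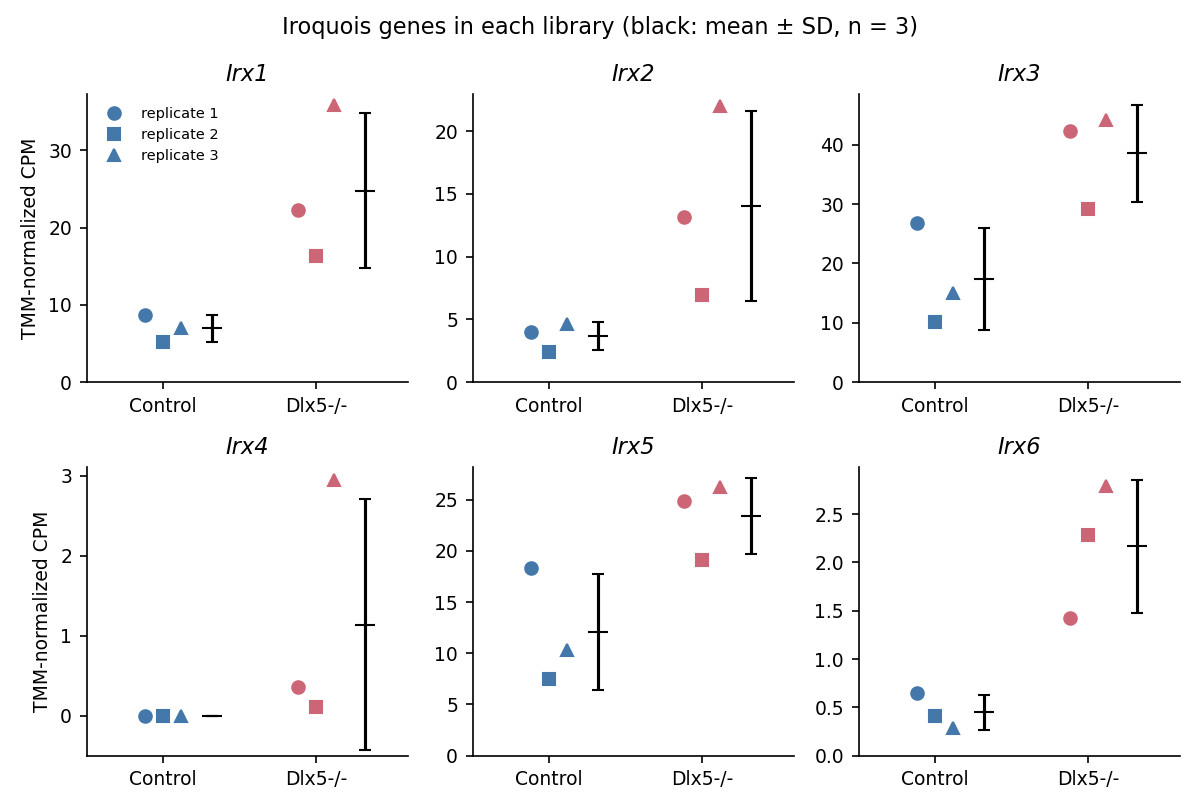
Level of each Iroquois gene in every library, in TMM-normalized CPM on linear axes that differ between panels. Blue points are control and red points Dlx5-/- libraries, the symbol gives the replicate number, and black bars are the mean ± SD of 3 libraries; the SD bar of Irx4 in the knockout runs below 0. In each panel the red points lie above the blue, narrowly for Irx3 and Irx5, and the triangle of knockout replicate 3 is the highest point.

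On chromosome 8, Irx3 measured 26.9, 10.1 and 15.1 CPM in controls and 42.3, 29.2 and 44.2 CPM in knockouts. Irx3 is a classic regulator of neural tube progenitors and of limb buds. Control replicate 1 reached close to knockout replicate 2, a ratio of 1.09 between the lowest knockout and the highest control. The means were 17.4 ± 8.60 and 38.6 ± 8.15 CPM, with a log2 fold change of 1.16 (SE 0.32).

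Irx5, the member tied to Hamamy syndrome, measured 18.4, 7.47 and 10.4 CPM in controls and 24.9, 19.1 and 26.2 CPM in knockouts. Its groups were separated by a ratio of 1.04, the least of the 5 members with control counts. The means were 12.1 ± 5.64 and 23.4 ± 3.75 CPM, with a log2 fold change of 0.96 (SE 0.30). Irx3 and Irx5 had the same order of libraries in both groups: control 1 above 3 above 2, and knockout 3 above 1 above 2. Irx1, in the other cluster, had this order too.

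Irx6, best known from retinal bipolar cells, measured 0.648, 0.406 and 0.287 CPM in controls and 1.42, 2.28 and 2.79 CPM in knockouts. These stand for 13 rounded counts over the control group and 70 over the knockout group. It passed the filter only through the knockout libraries, and its log2 fold change was 2.24 (SE 0.49). On the log2(CPM + 1) scale the difference was 1.11.

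All 6 members were thus higher in each knockout library than in any control library. Among the 29870 genes with a count, groups were separated in this direction for 6.45%, and among the 16218 fitted for 9.48%. Since the family was chosen on this contrast, nothing is read from its count. With library totals in place of TMM the count was 4, as Irx3 and Irx5 then overlapped between groups. The edgeR test, adjusted over all genes at 0.05, called 0 of the 5 fitted members (0% of all genes higher), and 1 gene of 16218 in either direction (0.00617%). Other methods called more of the members: limma-trend 1 (background 0.0555% higher), DESeq2 4 of the 4 with an adjusted p-value (0.858%), and edgeR without the filter 6 (0.817%). These calls use the contrast on which the family was chosen, so they are no support for it. Without the filter, the call of Irx4 rests on counts in the knockout libraries alone.

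Leaving out single libraries moved the size of the fold changes. Each stayed above 0, but this could hardly be otherwise, since each knockout library lay above every control library. Nothing is read from the sign. Without knockout replicate 3 the log2 fold change was 1.48 for Irx1, 1.47 for Irx2, 1.05 for Irx3, 0.87 for Irx5 and 2.00 for Irx6. Irx1 was then called by edgeR, one of 12 genes called higher (0.074%), and nothing is read from this call for the same reason. Irx3 and Irx5 depended most on the controls. Irx3 ran from 0.87 without control replicate 2 to 1.64 without control replicate 1, and Irx5 from 0.69 to 1.41 with the same libraries left out.

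**Figure D2:**
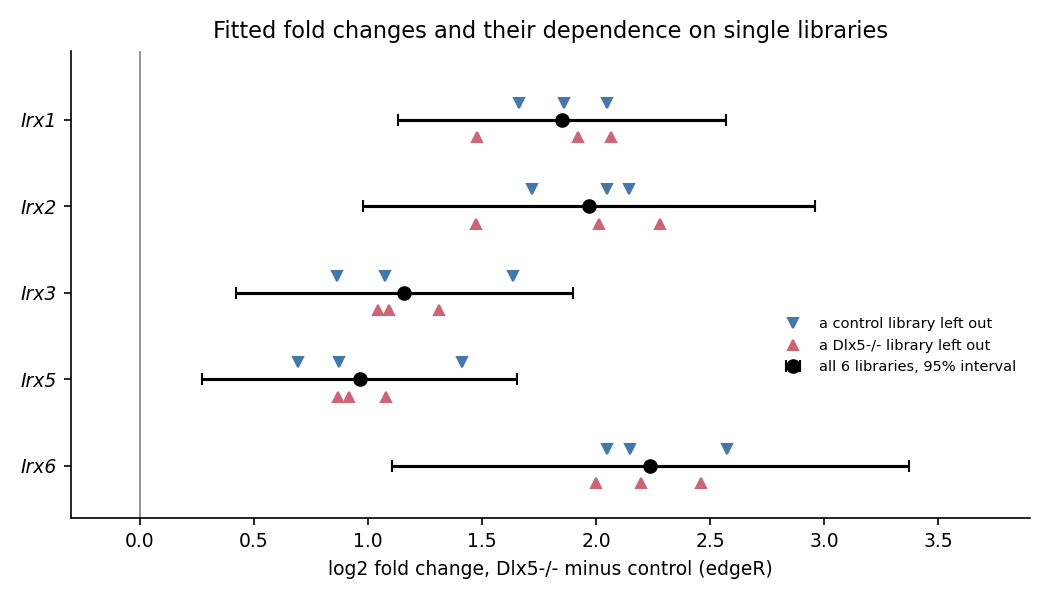
Fitted log2 fold change (x axis, Dlx5-/- minus control, edgeR) of the 5 fitted members, with 95% intervals from all 6 libraries in black. Blue triangles are fits with a control library left out and red triangles fits with a Dlx5-/- library left out. The leftmost red triangles of Irx1 (1.48) and Irx2 (1.47) are the fits without knockout replicate 3. Every point lies above 0, which follows from the separated groups on which the family was chosen.

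Levels of different members were compared per kb of exon. In the controls Irx3 was highest at 6.29 ± 3.11 CPM per kb, followed by Irx5 at 3.86 ± 1.80, Irx1 at 2.66 ± 0.66, Irx2 at 1.12 ± 0.34 and Irx6 at 0.133 ± 0.054, with Irx4 at 0. The ranges of Irx3 and Irx5 overlapped, as did those of Irx5 and Irx1. Irx2 lay below Irx1 and above Irx6 in all 3 controls. In the knockouts Irx3 was again highest at 13.97 ± 2.95 CPM per kb, now followed by Irx1 at 9.47 ± 3.82, Irx5 at 7.48 ± 1.20 and Irx2 at 4.28 ± 2.31. Irx6 was at 0.642 ± 0.206 and Irx4 at 0.436 ± 0.602. Ranges overlapped between Irx3 and Irx1, Irx1 and Irx5, Irx1 and Irx2, Irx5 and Irx2, and Irx6 and Irx4.

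Within a library the order of Irx1 and Irx5, per kb of exon, differed between genotypes. Irx5 took 28.9%, 26.8% and 25.6% of the family's summed CPM per kb in controls and Irx1 16.2%, 22.3% and 20.8%. In the knockouts Irx1 took 23.4%, 24.2% and 29.3% and Irx5 21.9%, 23.7% and 17.9%. Thus per kb Irx5 was above Irx1 in each control and below it in each knockout, by a small margin in knockout replicates 1 and 2. In those libraries the order depended on the exon lengths used. In CPM, Irx5 was above Irx1 there, at 24.9 against 22.3 in replicate 1 and 19.1 against 16.3 in replicate 2. The chromosome 13 cluster as a whole held 22.2%, 30.6% and 31.6% in controls and 34.8%, 32.5% and 46.1% in knockouts.

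Ratios were also taken within each library. No share over other gene pairs was taken, so nothing is read from whether groups overlap. Counts of Irx3 include reads divided with other genes. The ratio of Irx3 to Irx5, in CPM per kb, was 1.54 to 1.66 in controls and 1.73 to 1.92 in knockouts, with no overlap. The ratio of Irx1 to Irx2 was 1.92 to 2.71 in controls and 2.04 to 2.94 in knockouts, and here the groups overlapped. Between clusters the ratio of Irx3 to Irx1 was 1.85 to 2.95 in controls and 1.17 to 1.80 in knockouts, narrowly without overlap and lowest in knockout replicate 3. The ratio of Irx5 to Irx2 was 2.36 to 4.82 in controls and 1.25 to 2.89 in knockouts, and overlapped.

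**Figure D3:**
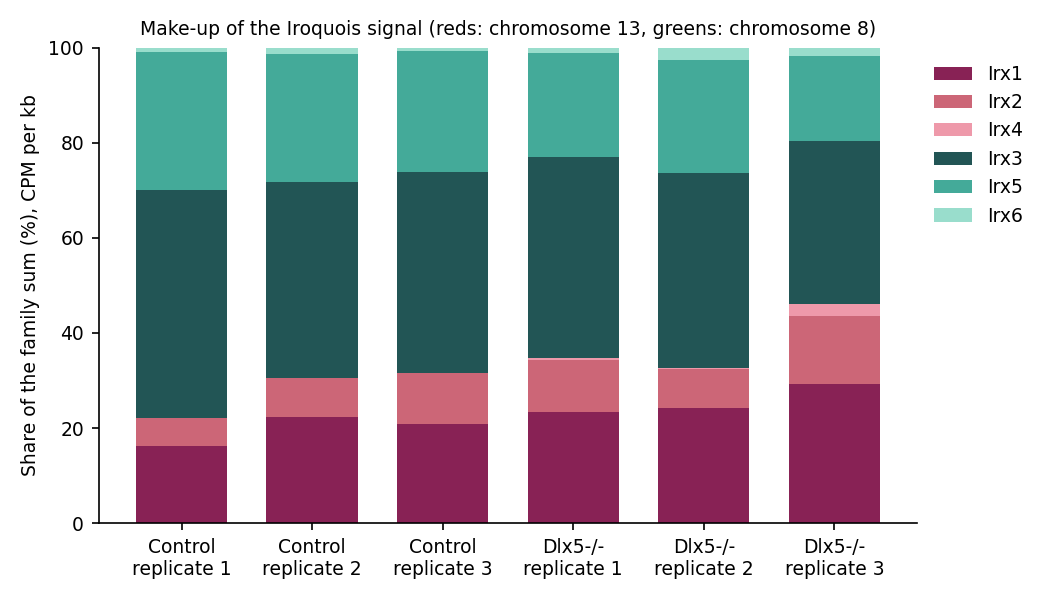
Share of each member in the family's summed level (y axis, percent of CPM per kb) in each of the 6 libraries. Red segments are genes of the chromosome 13 cluster and green segments genes of the chromosome 8 cluster. The red part is smallest in control replicate 1 (22.2%) and largest in knockout replicate 3 (46.1%).

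Genes near the clusters were then examined, a measure the choice of the family did not use. Within 1 Mb of either cluster, GENCODE M21 lists 117 other genes, of which 87 were rows of the table and 28 passed the filter. edgeR called 0 of the 28, and 2 had an unadjusted p under 0.05, against 12.8% of all genes fitted. limma-trend and DESeq2 also called 0. Groups were separated for 2 of them upward in the knockout, Tert and Trip13, and for 1 downward, Chd9, against 9.48% and 9.71% of all genes fitted. Their median log2 fold change was 0.08, beside 0.01 over all genes. Fto, which encodes an RNA demethylase and whose introns are known to hold long-range enhancers of Irx3, had a mean of 128 ± 4.56 CPM in controls against 136 ± 3.86 CPM in knockouts. The log2 fold change of Fto, 0.08, was not called (edgeR adjusted p = 0.699).

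The neighbours with the smallest p were Chd9 (log2 fold change -0.17; adjusted p = 0.366, edgeR), a chromatin remodeller, Tert (0.57; 0.383), the telomerase enzyme, Trip13 (0.36; 0.414), which acts in the spindle checkpoint, and Crnde (1.16; 0.440). Crnde is a long noncoding RNA that starts 1504 bases from Irx5 on the opposite strand. It measured 2.27, 1.38 and 1.01 CPM in controls and 3.91, 1.20 and 5.36 CPM in knockouts. Its groups overlapped, with knockout replicate 2 at the level of the controls. The highest estimate among the neighbours was that of Tppp, a tubulin-binding protein of oligodendrocytes, at 1.20 (adjusted p = 0.554, edgeR), with 30.3 CPM in knockout replicate 3 and 3.26 to 8.05 CPM in the other libraries. Irx3os was under the filter, where controls 1, 2 and 3 held 2, 6 and 1 counts and the knockouts 1, 5 and 12.

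**Figure D4:**
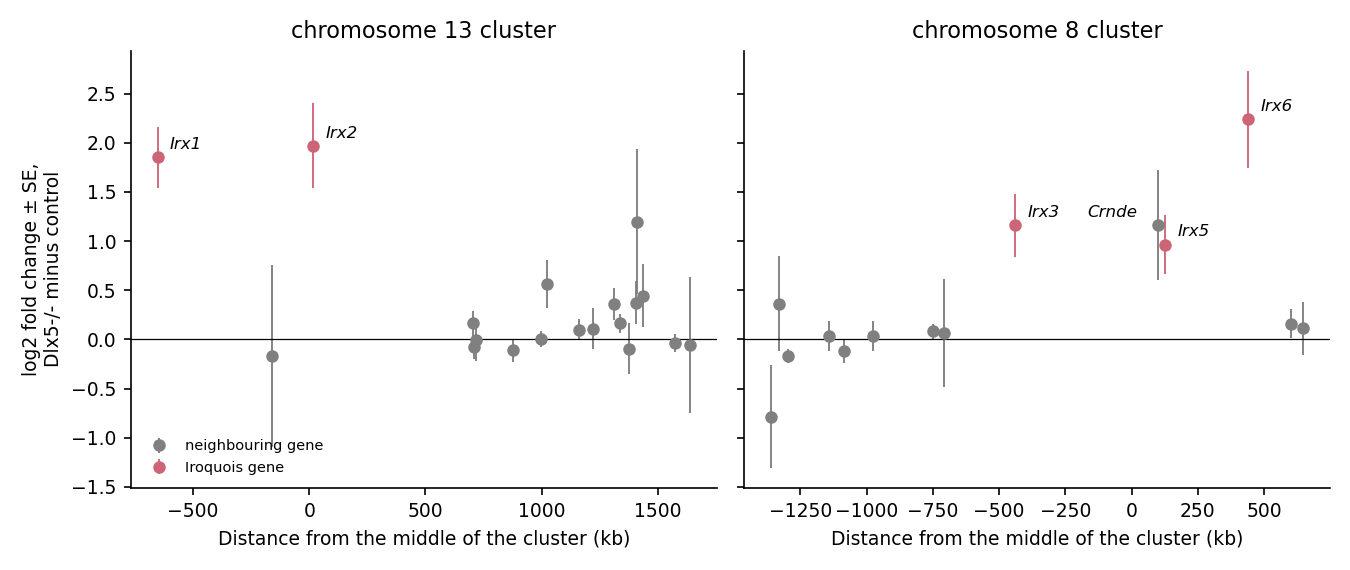
Log2 fold change ± SE (y axis, Dlx5-/- minus control) of fitted genes within 1 Mb of the Iroquois clusters, against the distance of the gene's middle from the middle of the cluster (x axis, kb). Red points are Iroquois genes, given as a description, and grey points the 28 neighbours. Of the neighbours, 0 passed the edgeR test, and the highest are Tppp (1.20) and Crnde (1.16), near Irx3 (1.16).

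RefSeq promoter windows on GRCm38.p6 were given for 3 members, Irx2, Irx3 and Irx4. The Irx3 window is annotated as exon in GENCODE and is not shown. Those of Irx2 and Irx4 are shown because these neighbours in one cluster had very different levels. Letters are in lower case with CG pairs in capitals, 5′ to 3′ on the plus strand, before the transcript start.
Irx2: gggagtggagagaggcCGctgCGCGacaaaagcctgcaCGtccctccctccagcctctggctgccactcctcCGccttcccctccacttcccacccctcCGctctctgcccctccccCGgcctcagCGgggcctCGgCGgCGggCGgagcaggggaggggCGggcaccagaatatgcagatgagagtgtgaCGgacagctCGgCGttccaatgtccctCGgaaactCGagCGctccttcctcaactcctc
Irx4: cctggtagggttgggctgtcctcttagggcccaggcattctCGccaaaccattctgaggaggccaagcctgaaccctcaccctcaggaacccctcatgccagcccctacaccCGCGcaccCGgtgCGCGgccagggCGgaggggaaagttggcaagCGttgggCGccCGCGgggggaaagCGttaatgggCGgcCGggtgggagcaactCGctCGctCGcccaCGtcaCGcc
The Irx2 window is chr13:72628570-72628819 and the Irx4 window chr13:73260247-73260478, after 18 bases of annotated exon were left off its end. Over 250 bases before the start, the GC content was 68.4% for Irx2 and 68.8% for Irx4, and the number of CG pairs was 19 and 22. The median over 27025 genes was 52% GC and 6 CG pairs, so both windows were rich in CG although Irx4 had 0 counts in controls. The homeodomain motif TAATTA, which is its own reverse complement, was in none of the 3 members' windows and in 4.90% of all. This says only that these letters are not in these windows.

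Other TALE homeobox genes and pathways that act with Iroquois genes were counted from written lists. They came to 73 distinct genes after the filter, with a median log2 fold change of 0.15 beside 0.01 over all genes. edgeR called 0 of the 73, 17 had an unadjusted p under 0.05 (all genes: 12.8%), and DESeq2 called 9 (all genes: 3.62%), of which Meis1, Pbx3 and Nkx6-1 were higher and Gja1 lower in the knockout and the other 5 are named below. Groups were separated for 17 of the 73 upward and 3 downward in the knockout, beside 9.48% and 9.71% of all genes. Of the 12 other TALE genes, 0 passed edgeR and 9 estimates were above 0. Meis1, a cofactor of Hox proteins, had the smallest p (log2 fold change 1.21, SE 0.26; adjusted p = 0.0913, edgeR) and passed without knockout replicate 3. For the partners and target of Irx5 in the face, 0 of 4 passed. Gata3, a zinc finger protein reported to bind Irx5, measured 17.1, 2.52 and 2.59 CPM in controls and 37.9, 17.9 and 37.5 CPM in knockouts (adjusted p = 0.229, edgeR). Its highest control library was again replicate 1.

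Among 7 neural tube patterning genes, 0 passed, the smallest p being that of Nkx6-1 (log2 fold change 1.84; adjusted p = 0.112, edgeR). Of 6 heart partners and targets, 0 passed. Gja1, a connexin gene regulated by Irx3 in heart, had a log2 fold change of -0.43 (adjusted p = 0.123, edgeR). Hedgehog, Wnt and BMP pathway lists held 13, 16 and 16 fitted genes, of which edgeR called 0 in each. An unadjusted edgeR p under 0.05 was held by 6, 5 and 0 of them, beside 12.8% of all genes. DESeq2 called the Hedgehog co-receptor genes Cdon and Gas1 and the Wnt pathway genes Wnt5a, Lef1 and Nkd1, all higher in the knockout, and 0 of the BMP list. Cdon was also called higher by limma-trend (all genes: 0.0555%). Without knockout replicate 3, edgeR called Cdon and Nkd1 higher (all genes: 0.074%).

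The genes most like each member were ranked by the mean absolute difference of their log2(CPM + 1) profiles over the 6 libraries, each taken relative to its control mean. This ranking uses the knockout libraries and is a description. Among 11581 candidates of at least 5 CPM, Irx1 was nearest to Fam107a, Tcf24 and Pantr1 (differences of 0.22, 0.22 and 0.26), and its distance to Irx2 was smaller still at 0.17. Irx2 was nearest to Meis1, Fam107a and Cdhr1 (0.26, 0.27 and 0.31). Irx3 was nearest to Pou3f3, Pantr1 and Sox9 (0.15, 0.18 and 0.21), respectively a POU factor, the noncoding RNA beside it and a regulator of cartilage, and its distance to Irx5 was 0.13. Irx5 was nearest to Lef1, Sox9 and Pou3f3 (0.10, 0.11 and 0.13), and Irx6 to Pamr1, Tex15 and Cdon (0.13, 0.15 and 0.16). Irx1, Irx2, Irx3 and Irx5 were each closer to their cluster neighbour among these than to the paralogue matched by position: Irx1 lay 0.37 from Irx3, and Irx2 0.48 from Irx5.

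Because Iroquois genes are active in the neural tube and in cartilage, markers of other cell types were summed in each library. In bulk tissue, more cells of a type cannot be told apart from more RNA per cell. The 12 mature brain markers summed to 154 to 189 CPM in controls, 139 and 102 CPM in knockout replicates 1 and 2, and 714 CPM in knockout replicate 3, where 11 of the 12 were highest. Single markers did not all follow the sum: in knockout replicate 1, 4 of the 12 were above every control, Gfap, Gad1, Neurod6 and Mbp, and in knockout replicate 2, 0 were. The 10 hindbrain markers summed to 42.9 to 51.3 CPM in controls and 50.1, 46.1 and 71.4 CPM in knockouts, with Hoxa3 and Hoxa4 at 0 in all controls and 7 of 10 highest in knockout replicate 3. The 8 embryonic neural tube markers summed to 278 to 341 CPM in controls and 285, 387 and 396 CPM in knockouts. The sum followed Nes, at 187 to 220 CPM in controls and 181, 326 and 326 CPM in knockouts. Of the 5 fitted, 4 had estimates below 0 (median log2 fold change -0.74), and Sox3 was lower in each knockout than in any control (-1.36; adjusted p = 0.242, edgeR). In this list, Olig2 and Nkx2-2 were at 1.44 CPM or lower in every library.

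Each Iroquois gene was likewise highest in knockout replicate 3, by 1.19-fold (Irx5) to 2.19-fold (Irx2) over the mean of the other knockouts among the fitted members, and by 12.7-fold for Irx4. The means of knockout replicates 1 and 2 were 2.77-fold above the control mean for Irx1, 2.73-fold for Irx2, 2.06-fold for Irx3, 1.82-fold for Irx5 and 4.14-fold for Irx6. Neuron markers went the other way, at 3626 to 4597 CPM summed over 10 genes in controls and 1632 to 2450 CPM in knockouts. The 8 markers of pituitary and ventral forebrain, tissues above the palate, summed to 128 to 208 CPM in controls and 43.1 to 86.6 CPM in knockouts. edgeR called 0 genes of any marker list, whereas DESeq2 called 8 of the 10 neuron markers, all lower in the knockout.

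Summed over 9 genes, cartilage markers measured 4852, 1909 and 2650 CPM in control replicates 1, 2 and 3, the order of Irx1, Irx3 and Irx5. In the knockouts the markers measured 4808, 5950 and 2039 CPM. Their highest value was in knockout replicate 2, where Irx1, Irx3 and Irx5 were lowest. Sox9, a member of that list, measured 265, 120 and 171 CPM in controls and 374, 299 and 286 CPM in knockouts, higher in each knockout than in any control (adjusted p = 0.237, edgeR). Skeletal muscle markers, summed over 10 genes, were at 627 to 1028 CPM in controls and 786, 2164 and 1413 CPM in knockouts. Oral epithelium markers were at 280 to 453 and 237 to 289 CPM. The part of these markers in the Iroquois values was not tested. The 10 palatal mesenchyme markers were all detected in every library, at a summed 486 to 603 CPM in controls and 518 to 610 CPM in knockouts. Of their estimates 7 of 10 were below 0 and 4 had an unadjusted p under 0.05. Pax9 (log2 fold change -0.67) and Tbx3 (-0.65) were lower and Prrx1 (0.45) higher in each knockout than in any control, and DESeq2, not edgeR, called all 3.

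**Figure D5:**
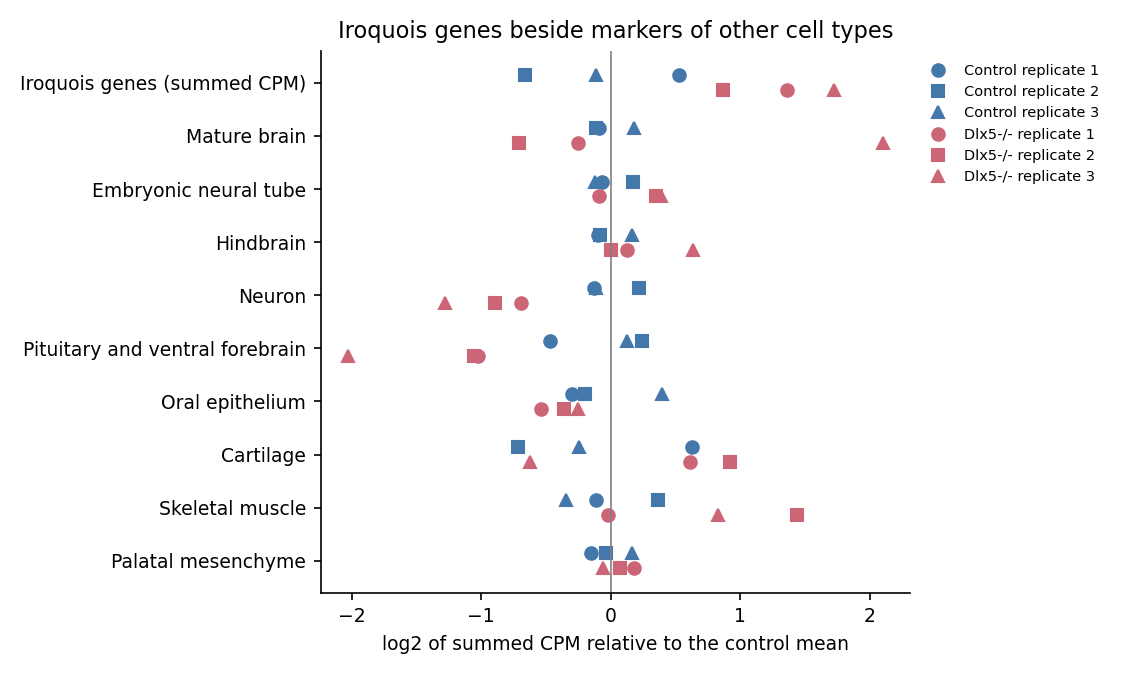
Summed CPM of the Iroquois genes and of marker lists in each library, as log2 relative to the control mean (x axis). Blue symbols are control and red symbols Dlx5-/- libraries, with the symbol giving the replicate. The Iroquois sum lies above every control in all 3 knockouts, but the family was chosen on this contrast, so nothing is read from it. The mature brain sum lies above every control in knockout replicate 3 alone, and the neuron sum lies below the controls in the knockouts.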

How the data were processed

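RNA was measured in 3 control and 3 Dlx5-/- libraries of E14.5 soft palate, made with an mRNA kit per the labels' protocols. STAR 2.4.1d, Partek and mm10 are listed, without their roles, in the submitters' processing notes. For annotation and strand, settings were not given in the sources used here. The authors deposited estimated counts per gene, with fractional values for some genes, and 64.5% of values above 0.5 were whole within 0.001. The deposited table's title calls the values normalized, but the totals differ between libraries and whole numbers are frequent, so they were treated as counts. The table's columns include 1 that fits no labelled sample, and it was left out. The labels do not tie libraries to separate embryos, so p-values measure only the spread between these samples.

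Counts were rounded, and genes with a mean of at least 1 CPM were kept (16218). The test was edgeR 4.0.16 quasi-likelihood (R 4.3.3) with TMM, no block and Benjamini-Hochberg adjustment at 0.05. SEs derive from its F statistic. Alternatives were limma-trend (limma 3.58.1, pseudocount 1 CPM), DESeq2 1.42.0, other scalings and filters, 5 rows that collect ribosomal RNA reads left out, a replicate block and each library left out. Exon lengths, positions and transcripts came from GENCODE M21 (GRCm38, also called mm10). Members, lists and rules were chosen with earlier results of these data known. Named were all members, up to 3 genes per list and 4 neighbours with the smallest p, and per member the 3 nearest profiles of at least 5 CPM (no Gm or Rik names). Fto, Irx3os, markers and genes called by DESeq2 were named outside this rule, after their values were seen. Figures used matplotlib 3.10.9.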

Additional observations from a re-analysis of the deposited data

How the results depend on the processing

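The number of genes called over the whole table depended on the method. Against 1 gene in the edgeR test reported, 41 were called with library totals, 679 without the filter, 74 with a filter of 5 CPM, 97 by limma-trend and 506 by DESeq2. With 1 library left out, edgeR called 0 to 164 genes: 0 when control replicate 3 or either of knockout replicates 1 and 2 was omitted, 6 without control replicate 1, 4 without control replicate 2 and 164 without knockout replicate 3. The cause was not tested. With a replicate block 0 genes were called, and the log2 fold changes of the fitted members ran from 1.03 to 2.20. Same-numbered libraries deviated from their group means with correlations of -0.01, -0.01 and 0.02. For differently numbered libraries the correlations ran from -0.053 to 0.063. The labels do not say whether the numbers mark pairs, and correlations of deviations from means of 3 libraries cannot decide it. The count of 6 members with separated groups was the same under every alternative run except library totals, where it was 4. Most of these runs could hardly change it. The limma-trend and replicate block runs used the same scaled values, and leaving out a library only narrows a group, apart from rescaling. Nothing is read from this count.

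Over the alternatives that keep all libraries, the log2 fold change ran from 1.65 to 1.89 for Irx1, 1.58 to 2.02 for Irx2, 1.15 to 1.22 for Irx3 and 0.96 to 1.03 for Irx5. For Irx6 it was 1.11 by limma-trend, whose pseudocount shrinks low genes, and 2.20 to 2.27 otherwise, and with the 5 CPM filter it was not fitted. The 28 neighbouring genes gave 0 calls under all 14 alternatives. Depth limits Irx4 and Irx6, which had 0 and 13 counts over all controls.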
